A study of Homo sapiens with 8 samples.

Results

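The 48 genes described here encode the parts of focal adhesions and of the actin cytoskeleton, together with the YAP and TAZ co-activators and 4 of their target genes. They were listed by symbol according to their known roles, and not selected on a threshold of measured values, and all 48 were found among the 58828 genes counted in 22RV1 and DU145 cells. Earlier results of the same libraries were known when the list was drawn up, among them the low level of FLNA in 22RV1 cells that carried PAGE4, so the list counts as chosen by values of that contrast, and the difference between PAGE4 and vector in 22RV1 cells is described below with no test. The shares of the 48 genes set beside all genes for H2O2 and between the lines may not be independent of those earlier results either.

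Integrins are heterodimers of an alpha and a beta subunit that bind the extracellular matrix outside the cell and, through talin, vinculin, filamin and alpha-actinin, hold actin filaments inside it. Non-muscle myosin pulls on these filaments, and the tension sets whether YAP and TAZ stay in the cytoplasm or enter the nucleus, where they act with TEAD factors on genes such as CTGF, CYR61, ANKRD1 and AMOTL2. A second route, through MRTF and SRF, reads the pool of free actin and acts on the CArG box of many actin and myosin genes. In prostate cancer cells these genes are used in spreading, migration and the response to stiffness and injury.

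RNA was sequenced from 22RV1, a prostate cancer line of luminal type, and from DU145, a line from a prostate tumour metastasis. Each line carried an empty lentiviral vector or the same doxycycline-inducible vector with HA-tagged PAGE4, was selected with puromycin and given doxycycline, and was exposed to PBS or to 200 mM H2O2 (the dose in the labels) for 12 h before collection. Each of the 8 conditions had 1 library, with 25482984 to 43310401 counts. PAGE4, a disordered stress-response protein of the prostate that serves here as the check of the construct, had 0 or 1 count in the vector libraries and 1001 to 1489 in the PAGE4 libraries.

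Levels are given as CPM (counts per 1000000) after TMM scaling over the 8 libraries. A change with H2O2 was tested with edgeR's quasi-likelihood test over 22418 genes, in which the vector pair and the PAGE4 pair of a line served as repeats of each other, and it passed at an adjusted p (Benjamini-Hochberg) under 0.05. Nothing in the labels speaks of separate cultures within a condition, so these p-values measure only the spread between these libraries. In bulk RNA, fewer cells of a kind and less RNA per cell cannot be told apart.

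The lines kept to their labels in part of their markers. The 12 luminal prostate genes summed to 1183 to 2947 CPM in 22RV1 and to 120.6 to 169.8 CPM in DU145, where KLK3 was at most 0.04 CPM. The 12 genes of basal or mesenchymal-like lines summed to 218.7 to 328.7 CPM in 22RV1 and to 1273 to 1550 CPM in DU145, led in DU145 by VIM, ANXA1 and AXL. CD44, LGALS1 and CDH2 of the same list were lower in DU145 than in 22RV1 in each matched condition. CDH2 was at 1.70 to 4.09 CPM in 22RV1 and at most 0.04 CPM in DU145. The basal genes KRT5, KRT14 and TP63 stayed under 0.2 CPM in every library. Fibroblast and smooth muscle genes summed to 28.37 to 180.2 CPM, mostly SMTN, with DES, ACTG2 and COL1A2 under 0.5 CPM and LUM at most 3.17 CPM, and blood and endothelial genes to 0.77 to 2.97 CPM. COL1A1, a fibroblast collagen, went from 8.49 to 19.4 CPM with vector and from 11.98 to 27.1 CPM with PAGE4 in 22RV1 on H2O2, and from 9.09 to 6.18 CPM and from 9.26 to 5.78 CPM in DU145, and its part in the results below was not tested. All 11 luminal genes that could be tested fell with H2O2 in 22RV1 cells, at a median log2 fold change of -1.43, beside the changes of the 48 genes in the same libraries, and the part of that shift in them was not tested.

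Upstream sequences are shown for the YAP targets CTGF, ANKRD1 and AMOTL2 (CYR61 had no entry), since the results below turn on them, and for ACTA2, whose H2O2 change differed most between the lines. They are the 250 bases before the annotated start in RefSeq (GRCh38.p14), 5′ to 3′ on the strand of the gene, and 39 of the 48 genes had an entry. CTGF (current symbol CCN2) lies on chromosome 6 on the minus strand, and the bases shown are chr6:131951373-131951622. ANKRD1, also on the minus strand, is shown for chr10:90921088-90921337, AMOTL2, also minus, for chr3:134374448-134374697 before the second of its start sites, and ACTA2, also minus, for chr10:88952774-88953023 before the second of its start sites. Capitals mark GGAATG, the core letters read by TEAD factors, on either strand (CATTCC on the other), TGANTCA, the AP-1 site, and TATAAA, the TATA box.
CTGF: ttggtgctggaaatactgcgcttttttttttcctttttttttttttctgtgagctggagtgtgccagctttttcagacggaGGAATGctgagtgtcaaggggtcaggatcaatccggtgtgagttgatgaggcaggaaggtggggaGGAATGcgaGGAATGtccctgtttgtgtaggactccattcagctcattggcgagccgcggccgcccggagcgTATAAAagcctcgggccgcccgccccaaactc
ANKRD1: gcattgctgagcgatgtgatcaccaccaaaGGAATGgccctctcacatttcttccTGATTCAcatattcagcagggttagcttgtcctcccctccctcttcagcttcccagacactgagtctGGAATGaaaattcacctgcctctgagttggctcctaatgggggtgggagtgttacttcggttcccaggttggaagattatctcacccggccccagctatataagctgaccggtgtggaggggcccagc
AMOTL2: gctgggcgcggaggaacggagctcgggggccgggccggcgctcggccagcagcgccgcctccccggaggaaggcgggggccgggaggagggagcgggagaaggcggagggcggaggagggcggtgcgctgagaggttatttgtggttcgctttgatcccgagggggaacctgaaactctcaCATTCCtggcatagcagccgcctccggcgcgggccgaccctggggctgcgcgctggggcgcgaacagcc
ACTA2: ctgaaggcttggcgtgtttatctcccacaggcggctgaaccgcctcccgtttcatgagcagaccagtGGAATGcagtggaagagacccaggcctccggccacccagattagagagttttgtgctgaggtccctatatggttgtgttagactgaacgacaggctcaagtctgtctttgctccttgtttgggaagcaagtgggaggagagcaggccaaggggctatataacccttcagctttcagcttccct

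GGAATG stood 169, 104 and 95 bases before the start of CTGF, with TATAAA 32 bases before it. ANKRD1 held it 220 and 128 bases upstream, with an AP-1 site between them at 195. AMOTL2 had 1 match at 69 and ACTA2 1 match at 183 bases, each before its second start site, and the 250 bases before the first start site of either gene, which are not shown, held none of these motifs. Counting a gene when any of its start sites had a match, 14 of the 39 genes (35.9%) held GGAATG, and 13.5% of 15843 protein-coding genes did. The CArG box, by its name the SRF motif, was searched only as CCWWWWWWGG, where W is A or T, with no mismatch. It was found in 7 of 39 (17.9%), namely ACTG1, ACTN1, CNN2, FLNA, ITGB6, MYLK and TPM4, and in 1.59% of all. Near matches were not counted or marked. Among them are ccctatatgg and ccttgtttgg in the ACTA2 bases shown, each 1 base away from that pattern. The AP-1 letters (7.69% against 7.09%) and TATAAA (12.8% against 11.9%) were about as frequent as elsewhere. The list was chosen to hold known targets of both factors, so these shares are not independent of the choice. Its genes had 71 start sites, and per start site 21.1% held GGAATG against 10.5% of 22199, and 9.86% against 1.18% a CArG box. A match is a description of letters and not a binding site.

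**Figure D1:**
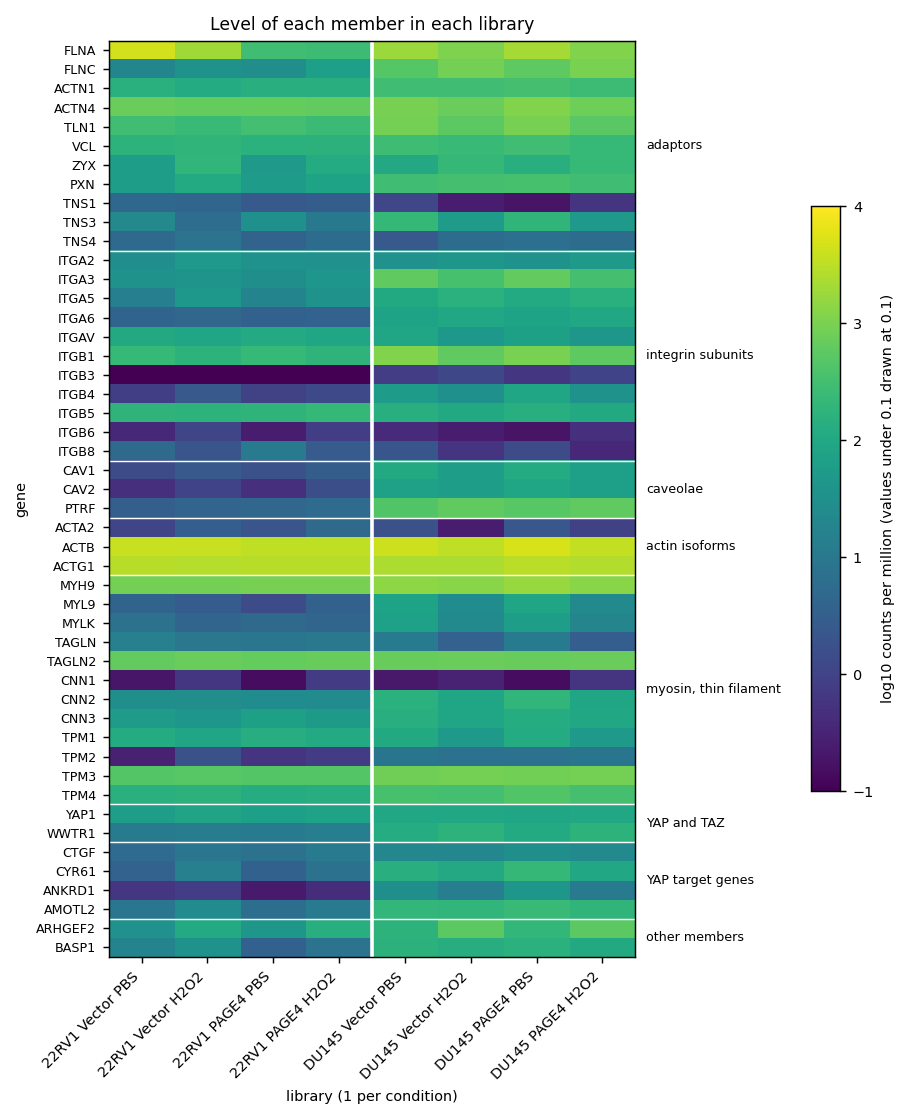
Level of each of the 48 genes (rows, by role) in each of the 8 libraries (columns), as log10 CPM on the colour scale. Most rows are brighter in the 4 DU145 libraries than in the 4 22RV1 libraries, and FLNA is darker in both 22RV1 libraries with PAGE4 than in both with vector.

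Most of these genes were higher in DU145 cells. All 4 DU145 libraries lay above all 4 22RV1 libraries, with means more than 1.5-fold apart, for 30 of the 48 genes, where 22.1% of 20136 genes did so, and the reverse was seen for 2, TNS1 and ITGAV, where 26.3% of genes did. The other 16 overlapped or were closer. Each line is 1 line, so this is a description and was not tested.

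The caveola genes PTRF and CAV2 differed most between the lines in the ratio of means. Caveolae are small membrane pits that flatten under stretch, built from caveolins and cavins. PTRF (cavin-1) was at 3.30, 4.31, 4.57 and 5.69 CPM in 22RV1 (vector with PBS, vector with H2O2, PAGE4 with PBS and PAGE4 with H2O2, the order kept below) and at 445.1, 599.7, 505.7 and 593.2 CPM in DU145, a 119.93-fold ratio of means. CAV2 differed 81.71-fold, and CAV1, 41.6-fold apart, came after the YAP target ANKRD1. Such levels put caveola transcripts near the lower end of detection in 22RV1, where CAV2 had 20 to 44 counts.

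All 4 YAP targets were higher in DU145 cells, ANKRD1 47.23-fold, CYR61 18.68-fold, AMOTL2 15.75-fold and CTGF 2.93-fold. Their co-activators split. WWTR1, which encodes TAZ, was at 10.91 to 14.04 CPM in 22RV1 and at 114.8 to 174.3 CPM in DU145, an 11.75-fold ratio without overlap. YAP1 was at 63.93 to 83.62 CPM in 22RV1 and at 92.59 to 101.0 CPM in DU145, a 1.31-fold ratio. Per kilobase of exon, the only scale on which genes can be set beside each other, YAP1 averaged 11.59 and WWTR1 1.49 CPM per kb in 22RV1, and they averaged 15.19 and 17.51 CPM per kb in DU145.

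Among the integrins, 6 of 11 were higher in DU145, led by ITGB4 (38.07-fold), ITGA6 (22.3-fold) and ITGA3 (13.16-fold); ITGA6 with ITGB4 forms the laminin receptor of hemidesmosomes. ITGB3 had 0 to 2 counts in the 22RV1 libraries and 17 to 30 in DU145, and no fold is given. ITGAV, the alpha subunit of several vitronectin receptors, was 1.64-fold higher in 22RV1, at 89.14 to 115.2 CPM against 44.98 to 86.34 CPM. ITGB5 and ITGB8, beta partners of ITGAV, had means that were also higher in 22RV1, but by 1.49-fold for ITGB5 and with an overlap for ITGB8.

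FLNC, the filamin of muscle, was 19.6-fold higher in DU145, and MYL9, a regulatory light chain of myosin, 18.29-fold. The actins did not separate: ACTB averaged 3554 CPM in 22RV1 and 3982 CPM in DU145, and ACTG1 2878 and 2614 CPM. Reads of ACTB and ACTG1, of the tropomyosins and of the actin pseudogenes are partly near-identical, and how the authors' counting treated reads that match several places is not given in the sources used here, so the split between these genes is uncertain.

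**Figure D2:**
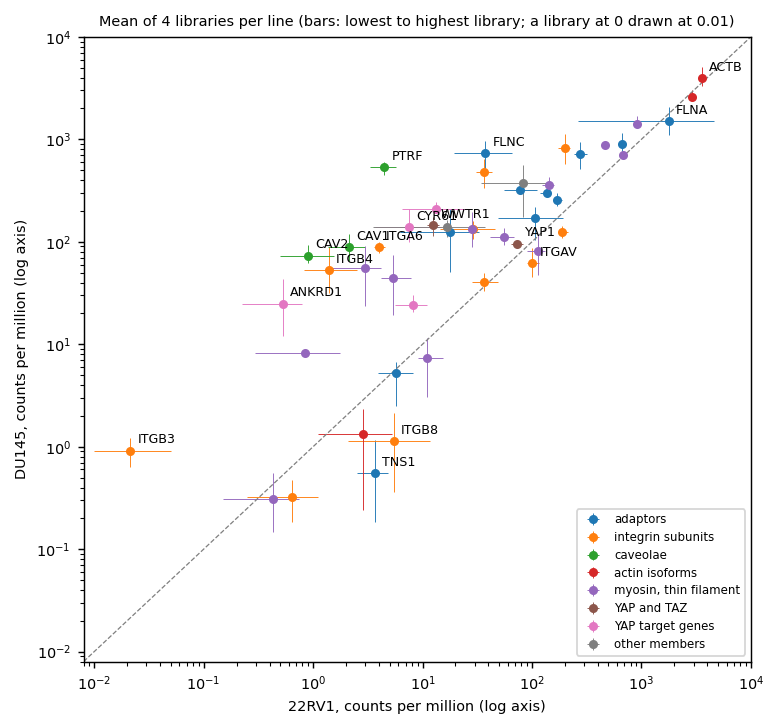
Mean level of each gene over the 4 DU145 libraries (vertical, log axis) against its mean over the 4 22RV1 libraries (horizontal, log axis), in CPM, coloured by role, with bars from the lowest to the highest library. Points above the dashed line are higher in DU145; PTRF, CAV2, CAV1, ANKRD1 and ITGB4 lie farthest above it among genes with over 3 counts in each line, and the FLNA bar spans 264.4 to 4601 CPM in 22RV1.

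H2O2 changed many of these genes in both lines, with small medians of opposite sign. Of the genes that passed in both lines, more moved the same way than opposite ways. In 22RV1 cells, 26 of the 48 passed the test (54.2%, where 27.7% of all genes did), 17 higher and 9 lower (12.8% and 14.9% of all genes), with a median log2 fold change of 0.17 over the 48 and 0.00 over all genes. In DU145 cells, 34 passed (70.8%, where 36.7% of all genes did), 8 higher and 26 lower (16.9% and 19.8% of all genes), with a median of -0.35 over the 48 and -0.03 over all genes. The difference between the lines itself passed for 25 genes (16.3% of all genes), and in all 25 the change in 22RV1 was the more positive one, while 8.76% of all genes differed in that direction and 7.54% in the other. Both lines agreed on the direction of 14 genes, 5 higher and 9 lower, 7 rose in 22RV1 and fell in DU145, and 9 passed in neither line. None of the 7 kept both calls under every alternative setting. Of the 14, FLNA, PTRF, ITGA5, ITGAV, MYLK and TPM1 did not either. The shares of all genes with such paired calls are not given here.

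The vector and PAGE4 pairs of a line had the same sign for 40 of 48 genes in each line. They disagreed most for TPM2 in 22RV1 and for TNS1 in DU145. With scaling by total counts, the median log2 ratio of all genes was 0.12 in the vector pair and 0.13 in the PAGE4 pair of 22RV1, where TMM gave -0.01 and 0.01, and it was 0.06 and 0.03 in DU145, where TMM gave -0.01 and -0.02. With total counts the median of the 48 genes was 0.31 and 0.37 in 22RV1 and -0.22 and -0.33 in DU145, and with TMM 0.18 and 0.25, and -0.29 and -0.39.

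**Figure D3:**
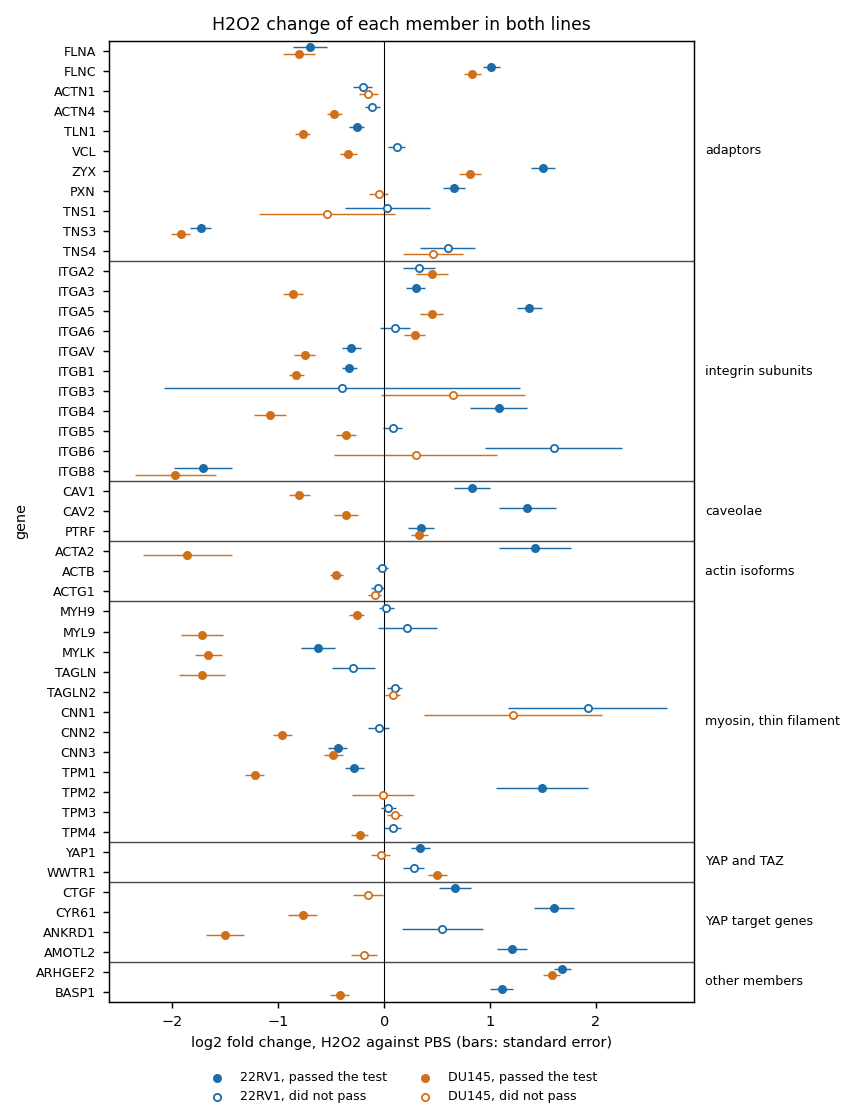
Fitted log2 fold change of each gene with H2O2 against PBS (horizontal, bars are standard errors) in 22RV1 (blue) and DU145 (orange), by role, with filled points for changes that passed the test. The YAP targets, caveolins and ACTA2 lie to the right of 0 in 22RV1 and to the left in DU145, while TNS3, ITGB8, ARHGEF2 and FLNC moved alike.

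Of the 4 YAP targets, 3 rose in 22RV1 cells and 1 did not pass, and in DU145 cells 2 fell and 0 rose. CYR61, which like CTGF encodes a secreted matrix-associated protein that binds integrins, went from 3.71 to 14.9 CPM with vector and from 3.65 to 7.74 CPM with PAGE4 in 22RV1, a log2 fold change of 1.6 ± 0.19 (SE, adjusted p = 7.78e-06). In DU145 it went from 145.1 to 106.2 CPM and from 209.8 to 99.2 CPM (-0.77 ± 0.14, adjusted p = 0.000348). Both pairs moved up in one line and down in the other, and the difference between the lines was 2.36 ± 0.24 (adjusted p = 3.01e-06). Without the DU145 PAGE4 pair the fall in DU145 was -0.45 (adjusted p = 0.0598), and by the DESeq2 Wald test it did not pass.

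AMOTL2, a scaffold protein that binds YAP and holds it in the cytoplasm, rose in 22RV1 from 9.004 to 26.02 CPM with vector and from 6.54 to 11.4 CPM with PAGE4 (1.21 ± 0.14, adjusted p = 6.16e-06). In DU145 it was at 201.2 and 197.7 CPM with vector and at 244.6 and 190.5 CPM with PAGE4, which did not pass (-0.19, adjusted p = 0.217). CTGF rose in 22RV1 from 5.59 to 9.19 CPM and from 7.19 to 11.03 CPM (0.67 ± 0.15, adjusted p = 0.00332), and was at 20.7 and 20.5 CPM, and 30.36 and 25.02 CPM, in DU145. Its difference between the lines, 0.81, was 0.68 (adjusted p = 0.201) without the DU145 PAGE4 pair. LINC01013, on the opposite strand, overlaps 11.9% of the exon bases of CTGF, and whether the counting used strand is not given in the sources used here.

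ANKRD1, a nuclear and sarcomeric ankyrin-repeat protein, fell in DU145 from 30.7 to 13.7 CPM and from 43.4 to 12.0 CPM (-1.50 ± 0.18, adjusted p = 3.99e-06). In 22RV1 it had only 28, 31, 9 and 13 counts, and its value of 0.55 did not pass. The H2O2 change differed between the lines for all 4 targets, by 0.81 to 2.36 on the log2 scale.

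The co-activators themselves moved little. YAP1 rose 1.26-fold in 22RV1 (63.9 to 83.6 CPM with vector, 65.3 to 79.8 CPM with PAGE4, adjusted p = 0.00705), and this did not pass without the vector pair (0.28, adjusted p = 0.108). WWTR1 rose 1.42-fold in DU145 (127.2 to 174.3 CPM and 114.8 to 168.7 CPM, adjusted p = 0.000161), while its value in 22RV1 was 0.28 (adjusted p = 0.0512). Neither differed between the lines past the threshold, with values of 0.36 ± 0.12 for YAP1 (adjusted p = 0.052) and -0.23 ± 0.13 for WWTR1 (adjusted p = 0.284).

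**Figure D4:**
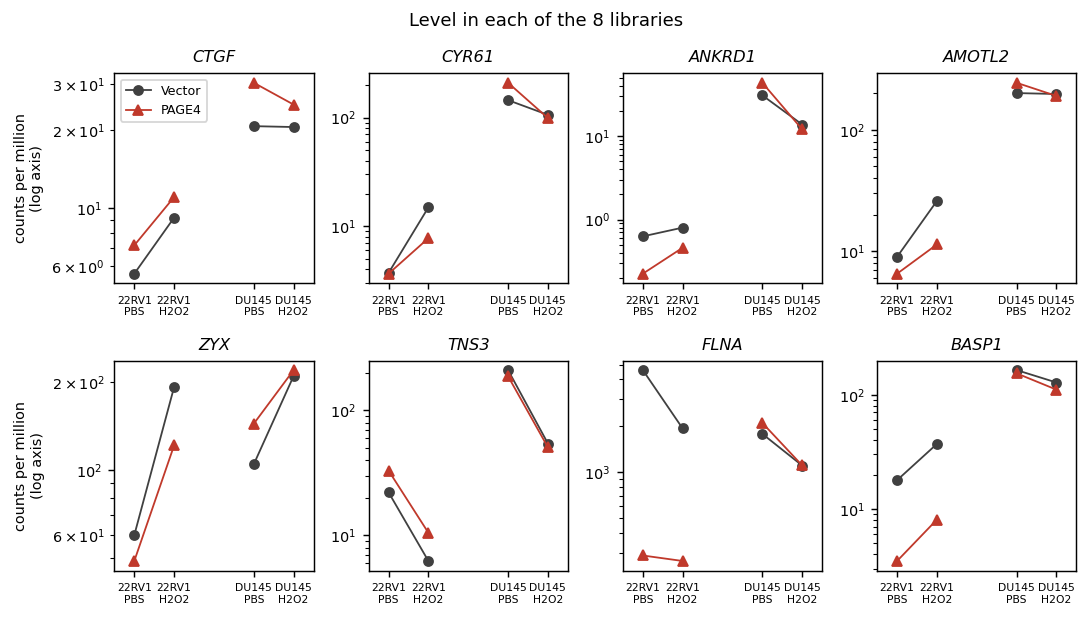
Level of 8 genes in each library, in CPM on log axes that differ between panels, with lines joining the PBS and H2O2 libraries of one construct (grey circles vector, red triangles PAGE4). CTGF, CYR61 and AMOTL2 rise in 22RV1 and lie level or fall in DU145, TNS3 falls in all 4 pairs, and in 22RV1 the PAGE4 libraries of FLNA and BASP1 lie far below the vector libraries.

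Among the adaptors between integrins and actin, TNS3 and TLN1 fell and ZYX and FLNC rose in both lines. FLNA also passed as lower in both lines, but its 22RV1 pairs disagreed, at -1.26 with vector and -0.12 with PAGE4 on the log2 scale. TNS3, a tensin that binds beta integrin tails and actin, fell in 22RV1 from 22.1 to 6.25 CPM and from 33.0 to 10.5 CPM (-1.73 ± 0.10, adjusted p = 2.51e-09). In DU145 it fell from 210.1 to 54.4 CPM and from 187.5 to 50.7 CPM (-1.92 ± 0.09, adjusted p = 1.59e-10). All 4 pairs fell by more than 3-fold, and the difference between the lines, 0.18 ± 0.14, did not pass.

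ZYX encodes zyxin, which gathers at strained stress fibres. It rose in 22RV1 from 59.9 to 192.5 CPM and from 48.8 to 121.5 CPM (1.5 ± 0.11, adjusted p = 1.54e-08), and in DU145 from 104.7 to 209.9 CPM and from 144.1 to 219.9 CPM (0.81 ± 0.10, adjusted p = 8.16e-06). The rise was larger in 22RV1 by 0.70 (adjusted p = 0.00301), though not past the threshold without the DU145 PAGE4 pair (0.50, adjusted p = 0.0567). FLNC rose in both lines, 2.01-fold in 22RV1 (19.3 to 35.5 CPM and 30.0 to 65.6 CPM) and 1.78-fold in DU145 (489.8 to 913.5 CPM and 570.6 to 971.1 CPM).

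TLN1, the talin that activates integrins, fell in both lines, by 0.26 in 22RV1 and by 0.77 in DU145 on the log2 scale. PXN (paxillin) rose 1.58-fold in 22RV1, from 64.4 to 111.7 CPM and from 56.1 to 80.7 CPM, and was at 298.7, 328.5, 350.8 and 296.8 CPM in DU145, a difference between the lines of 0.71 (adjusted p = 0.00126). ACTN4 and VCL fell in DU145, by 0.47 and 0.34, and not past the threshold in 22RV1. Without the DU145 PAGE4 pair neither differed between the lines (ACTN4 0.27, adjusted p = 0.212; VCL 0.37, adjusted p = 0.13), and VCL did not pass in DU145 (-0.26, adjusted p = 0.146). Of the 11 adaptors, 3 rose and 3 fell in 22RV1, and 2 rose and 5 fell in DU145. Exons of other genes overlap 27.2% of the exon bases of PXN, 14.2% of ACTN4 and 11.1% of VCL.

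FLNA, filamin A, crosslinks actin into networks and ties them to integrins. It fell in DU145 from 1772 to 1103 CPM and from 2087 to 1105 CPM (-0.80 ± 0.15, adjusted p = 0.00047). In 22RV1 the pairs did not agree, with a fall from 4601 to 1920 CPM with vector and 287.1 against 264.4 CPM with PAGE4. The fitted value in 22RV1 was -0.70 ± 0.16 (adjusted p = 0.00278), but it was -0.13 (adjusted p = 0.34) without the vector pair and -1.28 without the PAGE4 pair. The difference between the lines was 0.10 in the fit, -0.51 without the 22RV1 PAGE4 pair and 0.63 (adjusted p = 3.72e-08) without the 22RV1 vector pair. By DESeq2's Wald test FLNA passed in neither line (adjusted p = 0.182 in 22RV1 and 0.117 in DU145).

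Integrin subunits moved in both directions. In 22RV1, 3 of 11 rose and 3 fell, and in DU145, 3 rose and 6 fell. ITGA5, the alpha subunit of the fibronectin receptor, rose in both lines, in 22RV1 from 14.6 to 46.3 CPM and from 18.0 to 37.5 CPM (1.37 ± 0.12, adjusted p = 2.85e-07) and in DU145 from 107.4 to 158.4 CPM and from 116.1 to 147.3 CPM (0.45 ± 0.11, adjusted p = 0.00413). The DU145 value was 0.34 (adjusted p = 0.138) without the vector pair. The rise was larger in 22RV1 by 0.91 (adjusted p = 0.000998).

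ITGB8, which with ITGAV releases active TGF-beta, fell in both lines (5.25 to 2.09 CPM and 11.7 to 2.76 CPM in 22RV1, and 2.16 to 0.56 CPM and 1.48 to 0.36 CPM in DU145). Its log2 fold changes were -1.71 ± 0.27 (adjusted p = 0.000131) and -1.97 ± 0.38 (adjusted p = 0.000536), the latter on 59, 14, 40 and 9 counts. ITGB1, the shared beta subunit of most matrix receptors, fell by 0.33 in 22RV1 and by 0.83 in DU145, from 1138 to 602.9 CPM and from 968.6 to 574.9 CPM. ITGAV fell by 0.31 and 0.75, its value in 22RV1 not passing without the PAGE4 pair (-0.30, adjusted p = 0.0517) nor its difference between the lines without the 22RV1 vector pair (0.36, adjusted p = 0.0774) or the DU145 vector pair (0.29, adjusted p = 0.38).

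ITGA3 and ITGB4, both in laminin receptors, went opposite ways in the lines. ITGB4 fell in DU145 from 57.1 to 31.7 CPM and from 88.1 to 35.7 CPM (-1.08 ± 0.15, adjusted p = 2.21e-05). In 22RV1 its 37, 97, 39 and 36 counts gave a rise of 1.08 (adjusted p = 0.00673) that lay in the vector pair, since it was 0.37 (adjusted p = 0.596) without that pair. ITGA3 fell in DU145 from 605.0 to 351.0 CPM and from 636.4 to 334.6 CPM (-0.86, adjusted p = 5.12e-07) and rose 1.23-fold in 22RV1, where the value without the PAGE4 pair was 0.11 (adjusted p = 0.532). The difference between the lines was 1.16 for ITGA3 (adjusted p = 6.03e-06) and 2.16 for ITGB4 (adjusted p = 0.000129).

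The small rises of ITGA2 and ITGA6 in DU145 (0.45 and 0.29) rested on both pairs. The fall of ITGB5 there (-0.36) needed the PAGE4 pair to pass. Without the vector pair ITGA2 was at 0.50 (adjusted p = 0.068) and ITGA6 at 0.22 (adjusted p = 0.48), and without the PAGE4 pair ITGA2 was at 0.39 (adjusted p = 0.179), ITGA6 at 0.36 (adjusted p = 0.183) and ITGB5 at -0.34 (adjusted p = 0.055). For ITGB5 the difference between the lines, 0.44, did not pass without the 22RV1 PAGE4 pair (0.23), the DU145 vector pair (0.45) or the DU145 PAGE4 pair (0.42). ITGB6 had 17, 43, 10 and 23 counts in 22RV1, where its value of 1.6 did not pass (adjusted p = 0.0793) but did with only the 22RV1 libraries in the fit (1.61, adjusted p = 0.0393). In DU145, with 11, 6, 5 and 12 counts, it did not pass, and ITGB3, with at most 30 counts in a library, passed in neither line.

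Caveolins rose in 22RV1 and fell in DU145. CAV1 went from 1.37 to 2.53 CPM and from 1.72 to 2.97 CPM in 22RV1 (0.83 ± 0.17, adjusted p = 0.0014, or 0.84 with an adjusted p of 0.0594 with only the 22RV1 libraries in the fit), and from 108.5 to 64.4 CPM and from 118.4 to 66.2 CPM in DU145 (-0.80 ± 0.10, adjusted p = 6.24e-06). CAV2 rose 2.55-fold in 22RV1 on 22, 40, 20 and 44 counts (adjusted p = 0.00113) and fell 1.28-fold in DU145 (adjusted p = 0.0178). The fall of CAV2 did not pass without either DU145 pair (-0.49 without vector and -0.23 without PAGE4). PTRF rose in both lines, by 0.35 and 0.33, but did not pass when a single pair remained in 22RV1 (0.30 or 0.37) or without the DU145 vector pair (0.23). After H2O2, CAV1 in 22RV1 was still below 3 CPM and in DU145 above 64 CPM.

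Of the actins, ACTA2, the smooth muscle form, differed most between the lines of all 48 genes. In 22RV1 it had 49, 119, 82 and 150 counts and rose 2.68-fold (1.42 ± 0.34, adjusted p = 0.004). In DU145 it had 48, 6, 63 and 24 counts and fell 3.63-fold (-1.86 ± 0.42, adjusted p = 0.00189), or -1.28 (adjusted p = 0.0669) without the vector pair. The difference was 3.28 ± 0.54 (adjusted p = 0.000405). Exons of other genes overlap 36.2% of the exon bases of ACTA2, those of FAS on the opposite strand among them. FAS itself went from 5.91 to 33.0 CPM and from 9.21 to 32.0 CPM in 22RV1 and from 10.7 to 8.11 CPM and from 9.33 to 10.2 CPM in DU145, and its part in the ACTA2 counts was not tested.

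ACTB, the reference gene of the study's quantitative PCR, was at 3867, 3748, 3290 and 3311 CPM in 22RV1, with a log2 fold change of -0.02 (adjusted p = 0.874). In DU145 it fell 1.36-fold, from 4170 to 3322 CPM and from 5034 to 3404 CPM (-0.45 ± 0.06, adjusted p = 2.06e-05). The difference between the lines was 0.43 (adjusted p = 0.00264). ACTG1 had log2 fold changes of -0.06 and -0.09, neither past the threshold.

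Most contractile genes fell in DU145. Of the 12 genes for myosin and thin-filament regulators, 8 fell there and 0 rose, and in 22RV1 3 fell and 1 rose. MYL9 went from 78.7 to 27.3 CPM and from 90.1 to 23.9 CPM in DU145 (-1.72 ± 0.20, adjusted p = 3.26e-06). MYLK, the kinase that phosphorylates this light chain, went from 74.0 to 23.2 CPM and from 59.8 to 19.1 CPM (-1.66 ± 0.13, adjusted p = 5.69e-08). TAGLN, an actin-binding protein of smooth muscle, went from 11.4 to 3.81 CPM and from 11.1 to 3.07 CPM (-1.72 ± 0.22, adjusted p = 8.34e-06). All 3 fell by more than 2.5-fold in both DU145 pairs.

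TPM1, a tropomyosin that covers actin filaments, fell 2.33-fold in DU145 and 1.22-fold in 22RV1, the latter not passing without the vector pair (-0.19, adjusted p = 0.318). CNN2, a calponin, fell 1.95-fold in DU145, against a value of -0.05 on the log2 scale in 22RV1. CNN3 fell in both lines, 1.35-fold and 1.40-fold. MYH9 and TPM4 fell by 0.26 and 0.23 in DU145, and not past the threshold without the PAGE4 pair (-0.12 and -0.14). TAGLN2, TPM3 and CNN1 passed in neither line.

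In 22RV1, MYL9 had pairs of opposite sign, 184 and 109 counts with vector and 59 and 102 with PAGE4. Its fitted value there was 0.22, with -0.57 (adjusted p = 0.0403) without the PAGE4 pair and 1.28 (adjusted p = 4.45e-05) without the vector pair, and its difference between the lines, 1.94 (adjusted p = 0.000869), did not pass by DESeq2's Wald test. MYLK (-0.62) and TPM2 (1.49, on 13, 68, 24 and 21 counts) passed in 22RV1, but not without the vector pair (-0.34, adjusted p = 0.335, and 0.29, adjusted p = 0.798). The difference between the lines passed for 5 of the 12, MYL9, TAGLN, MYLK, TPM1 and CNN2. Exons of other genes, PCSK7 on the opposite strand among them, overlap 47.8% of the exon bases of TAGLN, and those of others 22.7% of TPM1. PCSK7 was at 59.0, 40.7, 51.9 and 37.1 CPM in DU145.

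ARHGEF2 and BASP1 complete the list. ARHGEF2 (GEF-H1), a microtubule-bound exchange factor that activates RhoA, rose about alike in both lines. It went from 34.4 to 116.1 CPM and from 45.2 to 137.6 CPM in 22RV1 (1.68 ± 0.08, adjusted p = 3.18e-10) and from 174.5 to 561.3 CPM and from 201.3 to 557.6 CPM in DU145 (1.58 ± 0.08, adjusted p = 3.45e-10), with a difference of 0.10 ± 0.11 that did not pass. BASP1, a membrane-bound protein that organises cortical actin, rose in 22RV1 from 17.9 to 37.1 CPM and from 3.495 to 8.062 CPM (1.11 ± 0.11, adjusted p = 6.38e-07). In DU145 it fell from 164.6 to 128.1 CPM and from 154.1 to 110.9 CPM (-0.42 ± 0.09, adjusted p = 0.00104), or -0.37 (adjusted p = 0.0893) without the PAGE4 pair.

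With PAGE4 in place of vector, about as large a share of these genes as of all genes differed in 22RV1 cells, a few by much. DU145 cells showed hardly any difference. In 22RV1, the single PBS pair was over 1.5-fold apart for 10 of the 47 genes (21.3%) that averaged 10 counts or more in the line, where 19.8% of 20384 genes were. With PAGE4, 4 were higher and 6 lower (7.99% and 11.8% of genes). The H2O2 pair was for 12 (25.5%), 4 higher and 8 lower, where 23.4% of genes were, 11.2% higher and 12.1% lower. Over 1.5-fold in both pairs were FLNC and ACTA2, higher with PAGE4 (2.71% of genes), and FLNA, BASP1 and ANKRD1, lower with PAGE4 (4.52% of genes). With 1 library against 1, and with this contrast known beforehand, these are descriptions of those libraries, and the intervals below cover counting error only.

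FLNA (chromosome X, 154348524 to 154374634, GENCODE 44 on GRCh38) was the largest of them. It had 204923 counts with vector and 11498 with PAGE4 in PBS, a ratio of -4.00 on the log2 scale (95% interval -4.03 to -3.98), and 74388 and 7477 counts in H2O2 (-2.86, -2.90 to -2.83). Its 22RV1 level with vector and PBS, 4601 CPM, lay above all 4 DU145 libraries, and both levels with PAGE4, 287.1 and 264.4 CPM, lay below them. The summed share of the 48 genes in all counts was 1.65% and 1.51% with vector and 1.14% and 1.25% with PAGE4 in 22RV1.

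BASP1 (chromosome 5, 17065598 to 17276843) was 5.09-fold lower with PAGE4 in PBS and 4.59-fold lower in H2O2. ANKRD1 had 28 and 9 counts in PBS and 31 and 13 in H2O2, 2.70-fold and 1.70-fold lower, and the interval of the latter took in no difference (-1.86 to 0.18). FLNC was 1.55-fold and 1.85-fold higher with PAGE4, and ACTA2 1.85-fold and 1.72-fold. The other filamin of the list thus lay on the opposite side to FLNA.

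After H2O2 the YAP targets of 22RV1 were lower with PAGE4 than with vector, except CTGF. AMOTL2 was at 26.0 against 11.4 CPM (2.28-fold lower with PAGE4) and CYR61 at 14.9 against 7.74 CPM (1.92-fold), as was ZYX at 192.5 against 121.5 CPM (1.58-fold). In PBS the same genes were closer, at 9.004 against 6.54 CPM for AMOTL2, 3.71 against 3.65 CPM for CYR61 and 59.9 against 48.8 CPM for ZYX. CTGF was higher with PAGE4 in both pairs (7.19 against 5.59 CPM and 11.03 against 9.19 CPM). Whether PAGE4 altered the H2O2 change was not tested, since each condition had 1 library.

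MYL9, TAGLN and TNS1 were over 1.5-fold lower with PAGE4 in the PBS pair (2.79-fold, 1.67-fold and 1.92-fold) and not in the H2O2 pair. ITGB8 and TPM2 were higher in PBS only, by 2.22-fold and 2.02-fold, and TPM2 was 2.33-fold lower in H2O2. Most of the remaining genes, YAP1, WWTR1 and the actins ACTB and ACTG1 among them, lay within 1.5-fold in both pairs.

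In DU145 cells PAGE4 changed 0 of the 48 genes past the threshold of edgeR's quasi-likelihood test (0.17% of all genes, 38 of 22418). Of the 48, 11 had an unadjusted p under 0.05 in that test, and the share of all genes at that unadjusted limit is not given here. The lowest adjusted p was that of ACTG1 (0.24 ± 0.06, adjusted p = 0.209). Under other settings up to 4 genes passed (ZYX, ITGB4, ACTG1 and CTGF, with only the DU145 libraries in the fit). The shares of all genes under those settings are not given here. By the 1.5-fold limit, 3 of 46 genes were apart in each pair (15.5% of 18186 genes), and 0 in both pairs, where 1.84% of genes were higher and 2.36% lower in both. FLNA was at 1772 and 2087 CPM in PBS and at 1103 and 1105 CPM in H2O2, with a log2 fold change of 0.12. BASP1 was at 164.6 and 154.1 CPM and at 128.1 and 110.9 CPM.

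**Figure D5:**
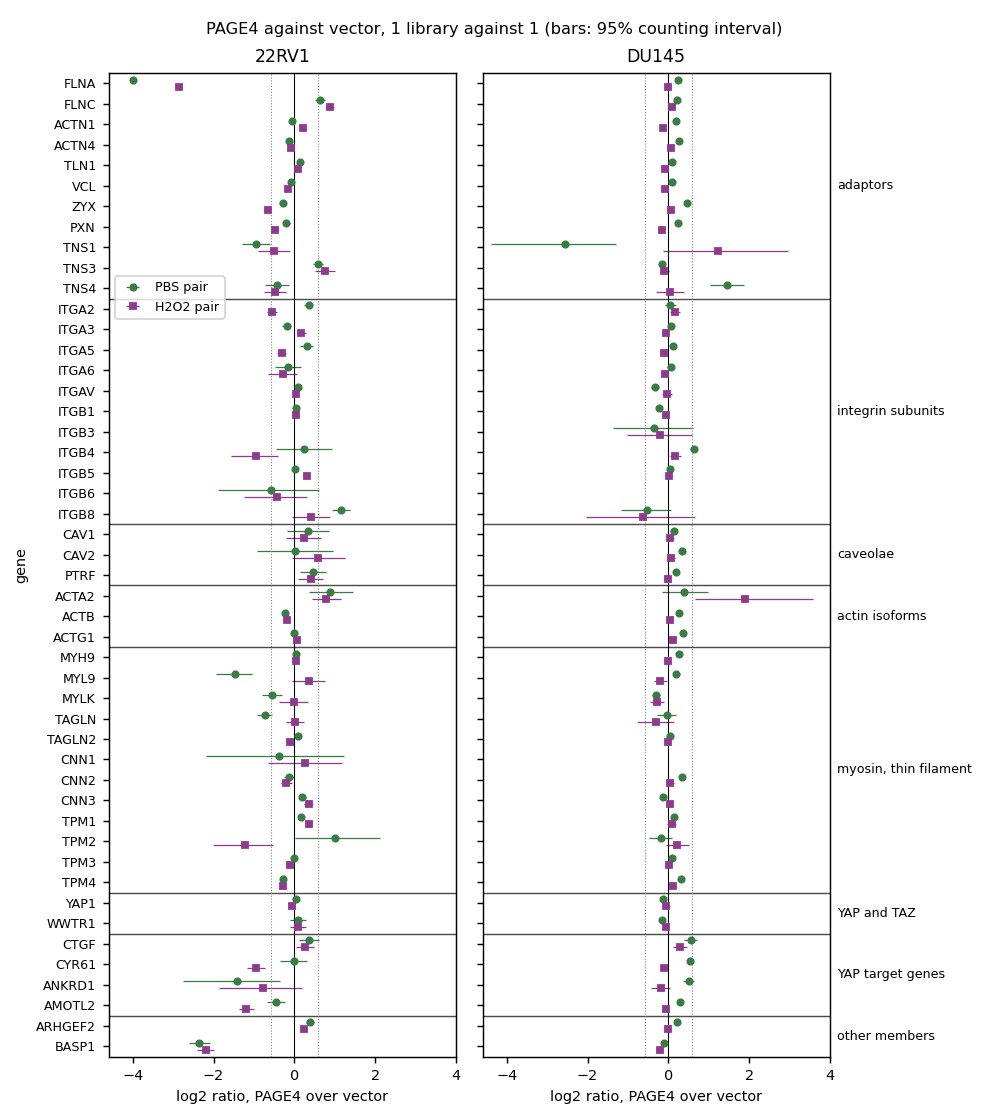
Log2 ratio of PAGE4 over vector for each gene in the PBS pair (green circles) and the H2O2 pair (purple squares) of 22RV1 (left) and DU145 (right), with 95% counting intervals and dotted lines at 1.5-fold; genes with a mean under 10 counts in a line are left out. In 22RV1, FLNA and BASP1 lie farthest to the left in both pairs, and in DU145 no gene is past the dotted lines on one side in both.

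Other genes of the same systems were counted from lists drawn from textbook knowledge, but with earlier results of these data known. Their counts are therefore not independent of those results. Of all genes, 12.8% rose and 14.9% fell with H2O2 in 22RV1, and 16.9% rose and 19.8% fell in DU145. The difference between the lines passed for 16.3% of all genes, 8.76% more positive in 22RV1 and 7.54% in DU145. These shares stand beside the counts of each list below. Of 37 further genes of the YAP-TEAD pathway and its targets, 14 rose and 10 fell with H2O2 in 22RV1, and 10 rose and 14 fell in DU145. The difference between the lines passed for 19 of them, 14 with the more positive change in 22RV1 and 5 in DU145. GADD45A, a growth arrest gene, rose in both lines, by 2.83 and 2.26 on the log2 scale, the largest rise of the list in each. GADD45B (1.80) and the receptor TGFBR2 (1.69) followed in 22RV1, and RBMS3 (-1.82), AMOT (-1.53) and the kinase NUAK2 (-1.38) were lower in DU145. FJX1 had 4, 0, 2 and 0 counts in 22RV1, and no fold is given.

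Among 34 further actomyosin and SRF genes, 8 rose and 9 fell in 22RV1 and 7 rose and 15 fell in DU145, and the difference favoured 22RV1 for 10 and DU145 for 1. ANLN, the contractile ring anillin, fell by 1.29 and DIAPH3, a formin, by 0.79 in 22RV1, and FHL2 (1.17) and RHOB (0.68) rose there. In DU145 FHL2 rose by 1.25 and ACTC1 by 1.14, while MYH10, a non-muscle myosin heavy chain, fell by 1.21 and MKL2, which encodes an MRTF, by 1.04.

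Of 43 further focal adhesion and integrin genes, 9 rose and 9 fell in 22RV1, and 10 rose and 13 fell in DU145, with 7 and 3 differing in favour of 22RV1 and of DU145. TLN2, the second talin, fell in both lines like TLN1 and by more, by 2.14 and 2.19. ITGA10 (1.94) and TES (1.07) rose and ITGA1 (-1.07) fell in 22RV1, and NEDD9 (1.65) rose and the cavin SDPR (-2.19) fell in DU145. PRKCDBP in 22RV1 (0, 5, 0 and 2 counts) and TGFB1I1 in DU145 (2, 16, 1 and 16 counts) passed on very few counts.

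PAGE4 changed 0 genes of these 3 lists in DU145 by edgeR's test (0.17% of all genes). Of all genes, 2.71% were higher and 4.52% lower over 1.5-fold in both 22RV1 pairs. In 22RV1, both pairs were over 1.5-fold apart for 5 genes of the YAP-TEAD list, 1 higher and 4 lower with PAGE4, among them TEAD3 (-0.89 in PBS and -0.90 in H2O2), VGLL4 (-0.92 and -0.75) and ARHGAP29 (-0.91 and -0.82). In the actomyosin list FHL2 (-0.66 and -1.13) and ACTA1 (-1.43 and -2.23) were lower, both on few counts. Their 22RV1 counts were 25, 55, 14 and 18 for FHL2 and 34, 86, 11 and 13 for ACTA1. In the focal adhesion list ITGA4 was higher (1.03 and 1.46), and TLN2 (-0.76 and -0.61) and ITGB7 (-0.71 and -1.21) were lower. ITGB7 had only 24, 36, 13 and 11 counts in 22RV1, and TLN2 had 179, 34, 95 and 16. In DU145 only ITGA1 was past the limit in both pairs, lower by 1.07 and 0.77, where 1.84% of all genes were higher and 2.36% lower.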

How the data were processed

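RNA of 22RV1 and DU145 cells was sequenced in 8 libraries, 1 library for each combination of line, construct and treatment. The submitters' processing notes name HISAT2 2.1.0, featureCounts 1.6.0 and the GRCh38 build. The deposited tables, 1 per line, hold the authors' raw counts of each gene under older symbols. The annotation release, the strand setting and the handling of reads with several matches are not given in the sources used here.

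Genes were kept by edgeR's filterByExpr, scaled by TMM (edgeR 4.0.16, R 4.3.3) and tested with glmQLFit and glmQLFTest over all 8 libraries with a term for each line, for the construct in each line and for H2O2 in each line, which left 2 residual degrees of freedom. p-values were adjusted over 22418 genes (limit 0.05). The study called genes by fold change, so single pairs were also compared at 1.5-fold with a mean of at least 10 counts, 0.5 added to each count and 95% Clopper-Pearson intervals. The script was tested on simulated counts for H2O2 in 22RV1 cells (21617 genes), where 164 of 200 genes changed 4-fold were recovered with 15 false calls. Alternatives were DESeq2 1.42.0, its size factors, no filter, one line's libraries, other limits and leaving out each pair.

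The 48 genes and all other gene lists were chosen with earlier results of these data known. All 48 may be named; from each other list, up to 4 genes with the largest H2O2 change past the limit in a line and up to 3 past 1.5-fold with PAGE4 in both pairs of a line were named, with TES beside ITGA1 as a tie. Gene positions and exon lengths come from GENCODE 44 and upstream sequences from RefSeq, matched by symbol or synonym.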

Additional observations from a re-analysis of the deposited data

Results flagged for a closer look

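The H2O2 change of 25 of the 48 genes differed between the lines by the test of the difference itself (edgeR's quasi-likelihood test, adjusted over all genes), and each of them had the more positive change in 22RV1. On the log2 scale, 22RV1 minus DU145, the difference was 3.28 for ACTA2, 2.36 for CYR61, 2.16 for ITGB4, 2.06 for ANKRD1 and 1.94 for MYL9. It was 1.71 for CAV2, 1.63 for CAV1, 1.53 for BASP1, 1.43 for TAGLN and 1.40 for AMOTL2. ITGA3 followed with 1.16, MYLK with 1.04, TPM1 with 0.94 and ITGA5 and CNN2 with 0.91 each. The smaller differences were 0.81 for CTGF, 0.71 for PXN, 0.70 for ZYX, 0.51 for TLN1 and ITGB1, 0.45 for VCL, 0.44 for ITGAV and ITGB5, 0.43 for ACTB and 0.36 for ACTN4. Of these 25, 7 rose in one line and fell in the other past the threshold (ITGA3, ITGB4, CAV1, CAV2, ACTA2, CYR61 and BASP1). None of the 7 kept both calls under every alternative setting. The vector and PAGE4 pairs were the only repeats behind each line's change, and luminal prostate genes fell beside it in 22RV1; their part in the difference was not tested.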

How the results depend on the processing

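The H2O2 fit as reported already sets each H2O2 library against the PBS library of its construct, and the labels carry no replicate numbers for a further block. With 8 libraries, the count of genes that passed stayed within 1.5 times for H2O2 in 22RV1 (20 to 27 without single pairs, 26 as reported), in DU145 (27 to 34) and for the difference between the lines (21 to 26). Where a pair was left out, the remaining pair of that line was assumed to vary like the other line. Across all settings, 31 of 48 genes kept the same side of the threshold and direction in 22RV1, 32 in DU145, 36 for the difference and 43 for PAGE4 in DU145. The value of MYL9 in 22RV1 turned to -0.57, and the difference between the lines for FLNA to -0.51, without the 22RV1 PAGE4 pair, and they were 1.28 and 0.63 without the 22RV1 vector pair, since these pairs disagreed for both genes. For PAGE4 in DU145, 2 genes passed without the filter on low counts (ACTB and ACTG1), 4 with only the DU145 libraries in the fit, and 0 to 3 without single pairs; the cause was not tested. At a limit of 2-fold in place of 1.5-fold, 6 genes were apart with PAGE4 in the 22RV1 PBS pair and 4 in the H2O2 pair, fewer by construction. In the DU145 H2O2 pair, 5 genes were apart with no minimum count and 0 with a mean of at least 50 counts. The shares of all genes under these alternative limits and settings are not given here, so the counts cannot be set against them. With under 50 counts in most libraries, the values of ITGB3, ITGB6 and CNN1 are limited by depth. So are those of TPM2, ANKRD1, CAV2 and ITGB4 in 22RV1, and of ACTA2, ITGB8 and TNS1 in DU145.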
